A study of Mus musculus with 14 samples.

Results

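The mitochondrial ribosomal proteins are the nuclear-encoded proteins of the ribosome that works inside mitochondria. They were taken as every gene whose symbol is Mrpl or Mrps followed by a number and at most 1 letter a, b or c, and the expression table held 76 such genes among 31274. RNA sequencing was done on whole uterus of untreated, intact FVB/N mice of 2 months of age, in 14 libraries. The 4 groups were HIF2A cKO at estrus (3 libraries), HIF2A cKO at diestrus (4 libraries), WT at estrus (3 libraries) and WT at diestrus (4 libraries). HIF2A, the product of Epas1, is a transcription factor that accumulates in low oxygen, and cKO stands for a conditional knockout. The labels do not state the Cre driver, the cells it acts in or the deleted part of Epas1. The comparisons asked how these genes differ between the stages of the estrous cycle in each genotype, and between the genotypes in each stage.

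Mitochondrial ribosomes translate only the few messenger RNAs of the mitochondrial genome, which code for subunits of the oxidative phosphorylation complexes. Their ribosomal RNAs come from the mitochondrial genome, while all of their proteins are made in the cytosol and imported. Some of these proteins have counterparts in bacterial ribosomes and others are found only in mitochondria. In the mouse cycle progesterone is the main ovarian hormone at diestrus, and estrus follows the estrogen peak of proestrus.

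Values are FPKM, fragments scaled by transcript length and by the library's total, so levels can be compared between genes on this scale. Totals were 437879 to 497688 FPKM per library, the depth in reads is unknown, and replicates of a group correlated at 0.956 to 0.994 on the log2 scale over all genes tested. The labels do not tie replicates to separate animals, and the p-values reflect variation among libraries that may be technical. Defining markers of the uterus were present in every library, with summed levels of 3664 to 6220 FPKM for smooth muscle, 1496 to 2141 FPKM for stroma and 476 to 1416 FPKM for epithelium. Epas1 stood at 41.2 FPKM in HIF2A cKO and 32.9 FPKM in WT at estrus (exact two-sided permutation p = 0.1, the smallest that 3 against 3 allows). At diestrus it stood at 39.5 FPKM in HIF2A cKO and 34.8 FPKM in WT (exact p = 0.257). The libraries labelled HIF2A cKO thus did not hold less Epas1 signal, and since the deleted part is not stated, the whole-gene value does not check the deletion. HIF2A cKO below means the libraries with that label.

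All 76 mitochondrial ribosomal protein genes had a value above 0 in every library, and all of them entered the tests. The lowest single value was 4.01 FPKM, of Mrpl19 in a HIF2A cKO estrus library. The mean of the 4 group means ran between 5.55 and 142 FPKM, with a median of 28.1 FPKM and quartiles of 18.6 and 43.0 FPKM, and 72 of 76 genes reached 10 FPKM. The highest were Mrpl52 at 142 FPKM, Mrps21 at 102 FPKM, Mrpl33 at 92.7 FPKM, Mrpl24 at 72.0 FPKM and Mrpl30 at 68.9 FPKM. The lowest were Mrpl11 at 10.5 FPKM, Mrps25 at 7.62 FPKM, Mrpl1 at 6.20 FPKM, Mrpl35 at 6.19 FPKM and Mrpl19 at 5.55 FPKM. Genes named for proteins of the same particle, most of which it holds as single copies, thus had messenger RNA levels that differed by over an order of magnitude. Genes of the large subunit, of which there were 49, had a median level of 30.3 FPKM, and the 27 genes of the small subunit had a median of 23.97 FPKM. These 2 classes followed the symbols, with Mrps18a and Mrps30 placed in the large subunit. Whether each product sits in the particle was not checked here. The 48 genes with a bacterial counterpart had a median of 34.6 FPKM, and the 28 mitochondrion-specific genes had a median of 22.9 FPKM.

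Summed over the 76 genes, the level separated the cycle stages in both genotypes. The sums were 2152, 2127 and 2252 FPKM in HIF2A cKO at estrus and 3188, 3333, 2817 and 3257 FPKM in HIF2A cKO at diestrus. In WT they were 2300, 2067 and 2133 FPKM at estrus and 2675, 3098, 2588 and 2590 FPKM at diestrus. Every estrus library lay below every diestrus library, and the estrus libraries of the genotypes overlapped. At diestrus the genotypes overlapped too, because HIF2A cKO replicate 3 was the lowest of its group and WT replicate 2 the highest of its own. Averaged over the family, the deviation from the group mean was -0.16 log2 in HIF2A cKO diestrus replicate 3, the lowest of its group for 59 of 76 genes. It was 0.16 log2 in WT diestrus replicate 2, the highest of its group for 69 of 76. WT diestrus replicate 3 was also low, at -0.08 log2, and was the lowest of its group for 42 of 76 genes. Taken by replicate number, each HIF2A cKO diestrus sum lay above the WT one, but the labels do not say what the numbers mark. The family made up 0.451 to 0.463% of all FPKM in HIF2A cKO at estrus and 0.581 to 0.681% at diestrus. In WT it made up 0.466 to 0.482% at estrus and 0.532 to 0.636% at diestrus.

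**Figure D1:**
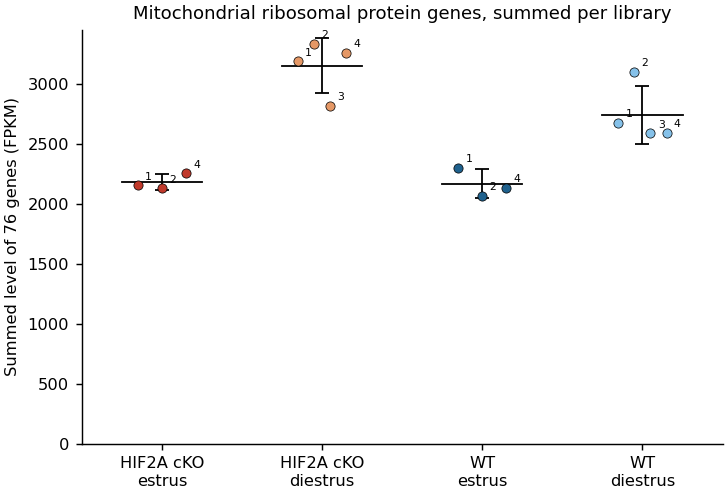
Summed FPKM of the 76 mitochondrial ribosomal protein genes in each library, by genotype and stage, with the replicate number beside each point, the group mean as a line and the SD as a bar. The estrus libraries of both genotypes sit between 2067 and 2300 FPKM and the diestrus libraries between 2588 and 3333 FPKM.

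Within HIF2A cKO, most of the family was lower at estrus than at diestrus. Of 76 genes, 68 were lower and 2 were higher (limma on log2(FPKM + 1) with all libraries in 1 fit, adjusted p under 0.05 over 14285 genes). Among all genes tested, 36.5% were called lower and 25.5% higher in the same comparison. The median change of the family was -0.56 log2, beside -0.08 over all genes, and single genes ran between -1.21 and 0.24. In 65 genes every estrus library lay below every diestrus library, against 37.0% of all genes, and in 2 genes every one lay above.

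Within WT most of the family was lower at estrus too. Of 76 genes, 56 were lower at estrus and 1 was higher, beside 34.1% lower and 23% higher among all genes tested. The median change was -0.39 log2, beside -0.09 over all genes, with single genes between -0.81 and 0.33. In 54 genes every WT estrus library lay below every WT diestrus library, against 36.9% of all genes, and in 2 genes every one lay above. Under a median-of-ratios scaling the counts of the family in WT were 42 lower and 3 higher. Among all 14285 genes tested, 3867 were lower and 3975 higher under that scaling, instead of 4877 and 3290. The share of higher among all calls was thus 50.7% instead of 40.3%. In HIF2A cKO that share was 50.03% instead of 41.1%.

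All 56 genes called lower in WT were also called lower in HIF2A cKO, and a further 12 were called in HIF2A cKO alone. No gene was called in opposite directions. The test of the difference itself, the interaction, called 0 of 76 genes by limma, beside 0.0840% of all genes called in either direction. Unadjusted, 16 of the 76 genes had p under 0.05 in that test, all with the more negative change in HIF2A cKO, beside 9.65% of all genes. A more negative change in HIF2A cKO was found for 70 of the 76 genes, beside 51.8% of all genes, and the median difference was -0.15 log2, beside -0.01 over all genes. The smallest adjusted p was 0.118, for Mrps26, whose difference was -0.45 ± 0.11 log2 (SE). Mrps34 differed by -0.35 ± 0.10 and Mrps28 by -0.71 ± 0.20 log2 (SE), both with an adjusted p of 0.145 (limma). The 2 stage comparisons share no library, but the interaction rests on the same diestrus libraries as the comparison of genotypes given further on. Without WT diestrus replicate 2 the interaction called 3 genes lower, and without HIF2A cKO diestrus replicate 3 it called 6.

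**Figure D2:**
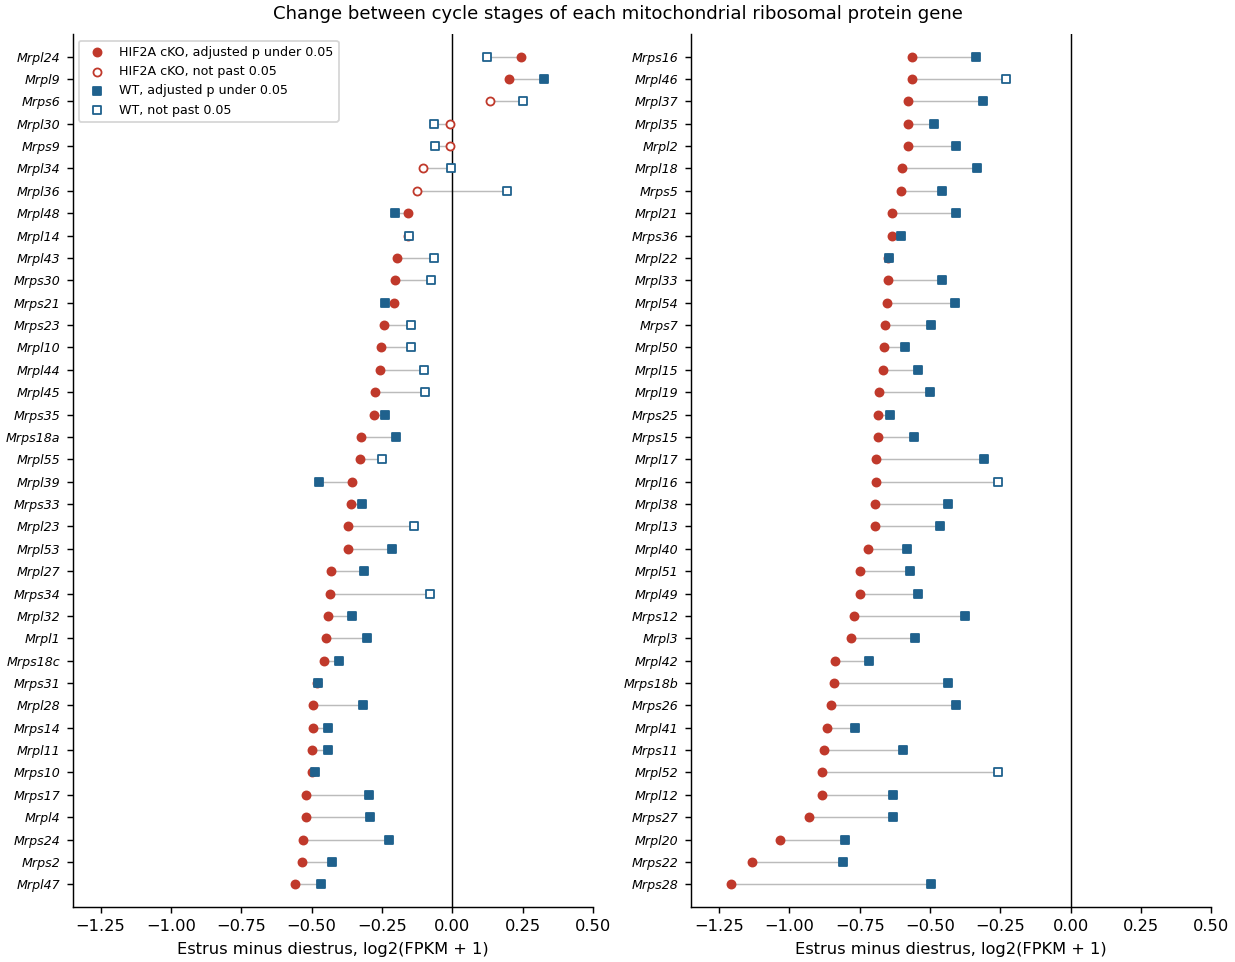
Difference between estrus and diestrus in log2(FPKM + 1) for each of the 76 genes in HIF2A cKO (circles) and WT (squares), ordered by the change in HIF2A cKO, with filled symbols for an adjusted p under 0.05. Most genes lie left of 0 in both genotypes, down to -1.21 for Mrps28 in HIF2A cKO, and Mrpl9 is filled right of 0 in both.

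Mrps22, a mitochondrion-specific protein of the small subunit, had the largest change in WT. Its level was 8.81, 9.99 and 9.93 FPKM in HIF2A cKO at estrus and 20.8, 23.3, 19.7 and 25.2 FPKM at diestrus. In WT it was 9.30, 11.1 and 10.8 FPKM at estrus and 19.3, 21.5, 16.9 and 18.4 FPKM at diestrus. The stages lay far apart in both genotypes, and the change was -1.13 ± 0.10 log2 in HIF2A cKO (adjusted p = 1.32e-06) and -0.81 ± 0.10 in WT (adjusted p = 2.97e-05, SE and limma for both).

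Mrps28, a small subunit protein related to a bacterial ribosomal protein, had the largest change in HIF2A cKO. It stood at 18.6, 18.4 and 20.3 FPKM in HIF2A cKO at estrus and 48.7, 49.3, 36.7 and 47.8 FPKM at diestrus. In WT it stood at 20.7, 20.1 and 24.96 FPKM at estrus and 31.5, 40.8, 27.9 and 26.4 FPKM at diestrus. At estrus only HIF2A cKO replicate 4 passed the lowest WT library, and at diestrus only WT replicate 2 passed the lowest HIF2A cKO library. The change was -1.21 ± 0.14 log2 in HIF2A cKO (adjusted p = 1.32e-05) and -0.50 ± 0.14 in WT (adjusted p = 0.00979, SE and limma).

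Mrpl20, a large subunit protein with a bacterial counterpart, followed the same course. It stood at 40.1, 42.6 and 48.4 FPKM in HIF2A cKO at estrus and 93.4, 93.95, 72.8 and 103.7 FPKM at diestrus. In WT it stood at 40.8, 44.1 and 43.4 FPKM at estrus and 77.05, 88.9, 66.2 and 71.1 FPKM at diestrus. The change was -1.03 ± 0.12 log2 in HIF2A cKO and -0.80 ± 0.12 in WT (SE, adjusted p = 1.24e-05 and 1.35e-04 by limma). Mrps28, Mrps22 and Mrpl20 were the 3 genes past 1 log2 in HIF2A cKO.

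Other large decreases at estrus were shared by the genotypes. Mrps27, a mitochondrion-specific small subunit protein, changed by -0.93 log2 in HIF2A cKO and -0.63 in WT. Mrpl41, a mitochondrion-specific large subunit protein, changed by -0.86 log2 in HIF2A cKO and -0.77 in WT, and Mrpl42 by -0.84 and -0.72. Mrps25 changed by -0.68 log2 in HIF2A cKO and -0.64 in WT, and Mrpl22, which lines the peptide exit tunnel, by -0.65 in each genotype. Mrps11, a small subunit protein with a bacterial counterpart, changed by -0.88 in HIF2A cKO and -0.60 in WT. The adjusted p of these genes was at most 3.74e-04 in every case (limma).

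The stalk recruits translation factors to the large subunit, and its 3 genes changed by different amounts. Mrpl12, the stalk protein that also binds the mitochondrial RNA polymerase, stood at 46.8, 45.7 and 53.0 FPKM in HIF2A cKO at estrus and 91.0, 93.9, 75.8 and 102.0 FPKM at diestrus. In WT it stood at 47.9, 39.1 and 40.8 FPKM at estrus and 65.7, 77.7, 58.0 and 65.2 FPKM at diestrus. Its change was -0.88 ± 0.12 log2 in HIF2A cKO and -0.63 ± 0.12 in WT (SE, adjusted p = 2.96e-05 and 5.54e-04 by limma). Mrpl11, at the stalk base, changed by -0.50 in HIF2A cKO and -0.44 in WT. Mrpl10, which anchors the stalk, fell by 0.25 in HIF2A cKO, and its change of -0.15 in WT did not pass the test (adjusted p = 0.0989 by limma).

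Mrps18a, Mrps18b and Mrps18c are 3 paralogs of a single bacterial protein, and all of them were lower at estrus in both genotypes. Mrps18b was the lowest in level, with 12.7, 12.2 and 11.8 FPKM in HIF2A cKO at estrus and 24.8, 26.3, 17.9 and 22.8 FPKM at diestrus. In WT it had 12.5, 10.8 and 10.2 FPKM at estrus and 14.03, 20.4, 12.8 and 15.5 FPKM at diestrus. Its change was -0.84 ± 0.15 log2 in HIF2A cKO and -0.44 ± 0.15 in WT (SE, adjusted p = 2.97e-04 and 0.0227 by limma). Mrps18c changed by -0.46 and -0.40, and Mrps18a by -0.33 and -0.20, the last with an adjusted p of 0.0478 in WT that 20 of the alternative settings did not keep under 0.05. Mrps12, the protein of the decoding centre, changed by -0.77 ± 0.12 log2 in HIF2A cKO and -0.38 ± 0.12 in WT (SE, adjusted p = 1.41e-04 and 0.0192 by limma).

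The small decreases that passed the test were below 0.3 log2. In WT they included Mrpl4 (-0.29), Mrps21 (-0.24), Mrps35 (-0.24), Mrps24 (-0.23), Mrpl53 (-0.21) and Mrpl48 (-0.20). In HIF2A cKO they included Mrpl10 (-0.25), Mrps23 (-0.24), Mrps21 (-0.21), Mrps30 (-0.20), Mrpl43 (-0.20) and Mrpl48 (-0.16). Apart from Mrpl4, each of these lost its call under some of the alternative settings. Mrps21, the second highest of the family in level, was 98.1, 91.9 and 99.7 FPKM in HIF2A cKO at estrus and 111.4, 119.9, 107.0 and 108.8 FPKM at diestrus.

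Mrpl9 and Mrpl24 moved the other way. Mrpl9, a large subunit protein with a bacterial counterpart, stood at 30.2, 28.8 and 28.6 FPKM in HIF2A cKO at estrus and 25.5, 25.2, 23.99 and 26.3 FPKM at diestrus. In WT it stood at 29.4, 29.4 and 30.3 FPKM at estrus and 22.98, 24.1, 25.4 and 21.6 FPKM at diestrus. The stages did not overlap in either genotype, and the change was 0.20 ± 0.06 log2 in HIF2A cKO (adjusted p = 0.00976) and 0.33 ± 0.06 in WT (adjusted p = 5.05e-04, SE and limma). Mrpl24, a protein at the exit tunnel, rose by 0.24 ± 0.06 log2 in HIF2A cKO (SE, adjusted p = 0.0039 by limma) and changed by 0.12 in WT (adjusted p = 0.1). An exon of Mrpl9 overlaps Oaz3 and an exon of Mrpl24 overlaps Rrnad1, each on the opposite strand, and the counting is not stated to use strand. Rrnad1 itself changed by -0.04 log2 in HIF2A cKO and -0.19 in WT.

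In HIF2A cKO the 6 genes that passed in neither direction were Mrpl14, Mrpl30, Mrpl34, Mrpl36, Mrps6 and Mrps9, named after their values were seen. Their changes ran between -0.16 and 0.13 log2 in HIF2A cKO and between -0.16 and 0.25 in WT. Mrps6, a small subunit protein with a bacterial counterpart, shares exon sequence with Slc5a3 on the same strand, so their reads cannot be told apart with certainty. Mrpl30, among the 5 highest in level, changed by -0.01 log2 in HIF2A cKO and -0.07 in WT.

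**Figure D3:**
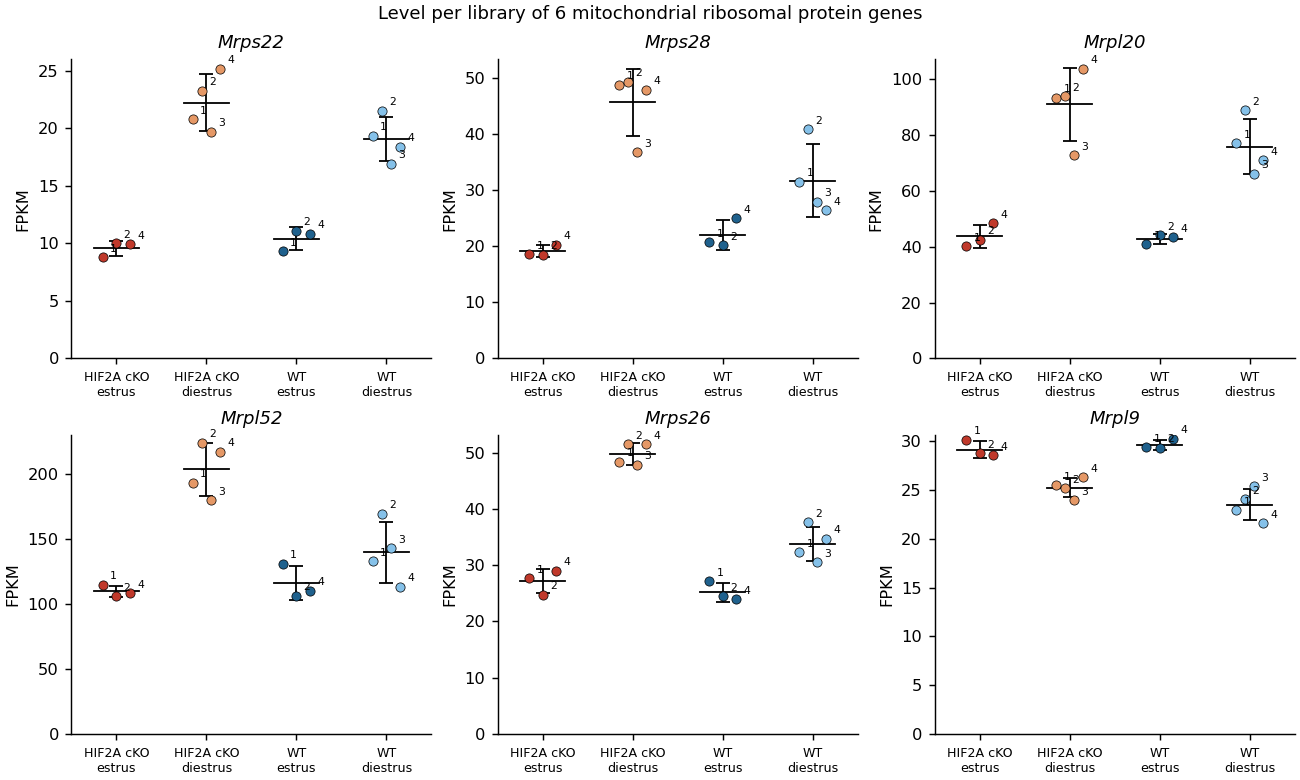
FPKM of 6 mitochondrial ribosomal protein genes in each library, by genotype and stage, with the replicate number beside each point, the group mean as a line and the SD as a bar, on axes that start at 0. Mrps22, Mrps28, Mrpl20 and Mrps26 are lower at estrus in both genotypes, Mrpl52 passed the test in HIF2A cKO only, and Mrpl9 is higher at estrus in both.

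In HIF2A cKO the decrease ran through the structural classes of the ribosome, and in WT through most of them. Among all genes tested, 36.5% were lower in HIF2A cKO and 34.1% in WT. Of the 49 large subunit genes, 43 were lower and 2 higher at estrus in HIF2A cKO, with a median of -0.56 log2, and 33 were lower and 1 higher in WT, with a median of -0.32. Of the 27 small subunit genes, 25 were lower in HIF2A cKO, with a median of -0.54, and 23 in WT, with a median of -0.43. All 28 mitochondrion-specific genes were lower in HIF2A cKO and 20 of them in WT, while of the 48 with a bacterial counterpart 40 and 36 were lower. The central protuberance, which contacts transfer RNA, had 6 of 6 genes lower in HIF2A cKO and 5 of 6 in WT. Around the peptide exit tunnel 5 of 6 were lower and 1 higher in HIF2A cKO, and 2 of 6 were lower in WT. That WT share was close to the share of all genes, and the median was -0.12 log2 beside -0.09 over all genes. No difference between classes was tested.

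The promoters of genes at both ends of this range are given with the motifs for NRF1 and for ETS factors such as GABP, since NRF1 and GABP are known regulators of nuclear genes for mitochondrial proteins. Each line holds the 250 bases before the transcription start in RefSeq for GRCm38.p6, 5′ to 3′ on the gene's strand, and capitals mark GCGCANGCG for NRF1 or CCGGAAG for the ETS core on either strand. Mrps22, Mrpl20 and Mrpl12 are shown for their decrease at estrus, Mrpl52 and Mrps26 for the difference between genotypes at diestrus, and Mrpl9 because it was higher at estrus. They were picked with their motifs known, and motif-bearing promoters are over-represented among them.
Mrps22, chr9:98601680-98601929, minus strand: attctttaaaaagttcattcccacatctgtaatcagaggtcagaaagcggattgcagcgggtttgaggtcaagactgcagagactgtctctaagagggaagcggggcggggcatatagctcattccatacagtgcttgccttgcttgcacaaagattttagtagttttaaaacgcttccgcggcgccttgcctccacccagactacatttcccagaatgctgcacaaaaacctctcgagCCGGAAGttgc
Mrpl20, chr4:155802628-155802877, plus strand: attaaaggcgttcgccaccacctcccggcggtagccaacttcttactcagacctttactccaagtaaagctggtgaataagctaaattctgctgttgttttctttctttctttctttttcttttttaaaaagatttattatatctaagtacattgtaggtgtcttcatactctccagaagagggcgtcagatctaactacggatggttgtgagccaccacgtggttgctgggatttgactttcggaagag
Mrpl12, chr11:120484387-120484636, plus strand: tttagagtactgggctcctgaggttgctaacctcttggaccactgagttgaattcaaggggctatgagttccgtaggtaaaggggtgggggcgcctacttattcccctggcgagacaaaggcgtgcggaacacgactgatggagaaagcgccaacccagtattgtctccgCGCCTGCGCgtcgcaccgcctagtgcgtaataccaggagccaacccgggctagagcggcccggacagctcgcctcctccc
Mrpl52, chr14:54426659-54426908, plus strand: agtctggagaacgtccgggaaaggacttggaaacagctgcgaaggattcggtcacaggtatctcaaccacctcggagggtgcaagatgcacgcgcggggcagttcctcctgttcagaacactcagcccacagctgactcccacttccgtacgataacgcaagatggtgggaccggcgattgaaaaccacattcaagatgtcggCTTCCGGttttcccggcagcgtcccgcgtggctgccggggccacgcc
Mrps26, chr2:130563507-130563756, plus strand: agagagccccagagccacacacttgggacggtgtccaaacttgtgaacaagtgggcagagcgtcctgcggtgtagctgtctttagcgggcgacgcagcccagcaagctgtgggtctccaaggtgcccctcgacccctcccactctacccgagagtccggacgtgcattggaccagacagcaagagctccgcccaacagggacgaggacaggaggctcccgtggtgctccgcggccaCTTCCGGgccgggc
Mrpl9, chr3:94443086-94443335, plus strand: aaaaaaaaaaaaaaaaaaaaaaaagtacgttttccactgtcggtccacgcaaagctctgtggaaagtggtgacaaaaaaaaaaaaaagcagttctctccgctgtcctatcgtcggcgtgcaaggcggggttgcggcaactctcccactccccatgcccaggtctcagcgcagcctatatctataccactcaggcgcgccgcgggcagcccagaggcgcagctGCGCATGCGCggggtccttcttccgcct
Mrps22 had an ETS core that began 11 bases before the start, Mrps26 one at 14 bases and Mrpl52 one at 47 bases. Mrpl12 had an NRF1 motif at 80 bases. Mrpl20 had neither motif. Among the other large decreases at estrus named above, neither motif was found for Mrpl41, Mrpl42, Mrps25 and Mrps11. Mrps27 held an ETS core, and Mrpl22 held both motifs. These other genes were searched in the longer windows described next, which run past the start. Mrpl9, which moved the other way, held a palindromic NRF1 motif at 28 bases, read on each strand. A motif match is a description of letters and not a binding site.

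RefSeq windows of 250 bases before to 50 after the start were matched by symbol for 67 of the 76 genes, and 10208 windows of tested genes served for comparison. The NRF1 motif was in 22.4% of the 67 windows and in 13.2% of the windows of tested genes. The ETS core was in 34.3% against 17.4%, and the YY1 core AAGATGGCG in 11.9% against 3.06%. The HIF core ACGTG was in 22.4% against 25.4%, and the E-box CACGTG, which contains the HIF core, in 7.46% against 10.1%. All were searched on both strands, and over all 27025 windows the shares were 6.47% for NRF1, 9.12% for ETS, 1.49% for YY1, 19.7% for the HIF core and 7.24% for the E-box. The median GC content was 58.0% in the family and 61% in tested genes.

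Members lay on 17 chromosomes, with at most 10 on any of them (GENCODE M21, mm10). A protein-coding gene that starts within 1000 bases and runs the opposite way was found for 17 members, or 22.4%, against 9.64% of tested protein-coding genes. Of 16 such partners that were tested, 9 were lower and 2 higher at estrus in HIF2A cKO, and 5 were lower and 2 higher in WT. Over all genes tested, the share lower was 36.5% in HIF2A cKO and 34.1% in WT, and the WT partners did not exceed it. The shares higher are given with the stage comparisons above. Whether the partners differ from all genes was not tested. Mrps12 faces Sars2, the mitochondrial seryl-tRNA synthetase, over 172 bases, and Sars2 changed by -0.72 log2 in HIF2A cKO and -0.55 in WT. Mrpl41 faces Pnpla7, a lysophospholipase, over 935 bases, and Pnpla7 was higher at estrus by 1.80 log2 in HIF2A cKO and 1.29 in WT. These partners were named after their values were seen. Exons of 30 members overlap those of another gene, so that part of their reads may be shared.

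At diestrus, 19 of 76 genes were higher in HIF2A cKO than in WT and 0 were lower by limma, beside 13.8% higher and 10% lower among all genes tested. Unadjusted, 32 genes were higher with p under 0.05, beside 22.0% of all genes. The median difference was 0.14 log2, beside 0.02 over all genes, and 63 of 76 genes had a positive difference, beside 52.2% of all genes. In 7 genes every HIF2A cKO library lay above every WT library, beside 8.80% of all genes that were higher in that way. Those 7 genes, a share close to that of all genes, were Mrps26, Mrpl52, Mrps34, Mrpl4, Mrps11, Mrpl36 and Mrpl28. The 19 calls used the spread estimated over all 14 libraries, and with the 8 diestrus libraries alone 1 gene, Mrps26, was called. That fit has fewer libraries and a spread of its own, and which of these lowered the count was not tested. The SD of the family's sum was 229 and 243 FPKM in HIF2A cKO and WT at diestrus, and 66.2 and 120 FPKM at estrus. With the replicate number as a block, which treats diestrus libraries of the same number as pairs, 25 genes were called with all libraries and 13 with the diestrus libraries alone. Without HIF2A cKO diestrus replicate 2 the count was 6, without its replicate 1 it was 11, and without WT diestrus replicate 3 or 4 it was 12. Without HIF2A cKO diestrus replicate 3 or WT diestrus replicate 2 it was 32.

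Mrps26, a mitochondrion-specific small subunit protein, had the largest difference. It stood at 48.4, 51.6, 47.9 and 51.5 FPKM in HIF2A cKO at diestrus and 32.3, 37.6, 30.5 and 34.7 FPKM in WT. The groups were apart by more than the range of either, and the difference was 0.55 ± 0.07 log2 (SE, adjusted p = 0.00209 by limma). At estrus Mrps26 stood at 27.7, 24.8 and 29.0 FPKM in HIF2A cKO and 27.1, 24.5 and 23.96 FPKM in WT, a difference of 0.10 log2 with an adjusted p of 0.881 (limma).

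Mrpl52, the highest gene of the family, stood at 193.7, 224.4, 180.0 and 217.4 FPKM in HIF2A cKO at diestrus and 133.0, 169.8, 143.2 and 113.3 FPKM in WT. The groups did not overlap, and the difference was 0.55 ± 0.12 log2 (SE, adjusted p = 0.00766 by limma). At estrus it stood at 114.9, 106.1 and 108.3 FPKM in HIF2A cKO and 131.0, 106.6 and 110.4 FPKM in WT. Its stage change was -0.88 ± 0.12 log2 in HIF2A cKO (SE, adjusted p = 5.65e-05 by limma) and -0.26 ± 0.12 in WT (SE, adjusted p = 0.094). The interaction of Mrpl52 was -0.62 ± 0.18 log2 (SE, adjusted p = 0.145 by limma).

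Mrps34, a mitochondrion-specific small subunit protein, stood at 29.9, 29.3, 25.8 and 29.5 FPKM in HIF2A cKO at diestrus and 21.6, 24.4, 21.4 and 22.7 FPKM in WT. The groups did not overlap, and the difference was 0.33 ± 0.07 log2 (SE, adjusted p = 0.00654 by limma). Exons of Mrps34 overlap Nme3 on the same strand, and Nme3 differed by 0.04 log2. Mrps7, a small subunit protein with a bacterial counterpart, stood at 46.6, 46.6, 40.8 and 49.7 FPKM in HIF2A cKO at diestrus and 34.7, 42.9, 34.4 and 36.2 FPKM in WT. Here WT replicate 2 passed HIF2A cKO replicate 3, and the difference was 0.30 ± 0.08 log2 (SE, adjusted p = 0.0147 by limma). With the replicate block in the diestrus libraries alone the adjusted p of Mrps7 was 0.055, and without the block in these libraries it was 0.0831 (limma).

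The other named genes of this comparison also overlapped. Mrps18b was higher in HIF2A cKO at diestrus by 0.53 ± 0.14 log2, Mrps28 by 0.52 ± 0.13, Mrpl17 by 0.45 ± 0.11 and Mrpl12 by 0.44 ± 0.11 (SE). Mrps12 was higher by 0.41 ± 0.11 and Mrpl54 by 0.36 ± 0.11 log2 (SE), and the adjusted p of these 6 genes was at most 0.0286 (limma). With the diestrus libraries alone their adjusted p ran between 0.0641 and 0.104. Of the 19 genes higher in HIF2A cKO at diestrus, 18 were lower at estrus in HIF2A cKO and 14 in WT, comparisons that share diestrus libraries with this one.

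**Figure D4:**
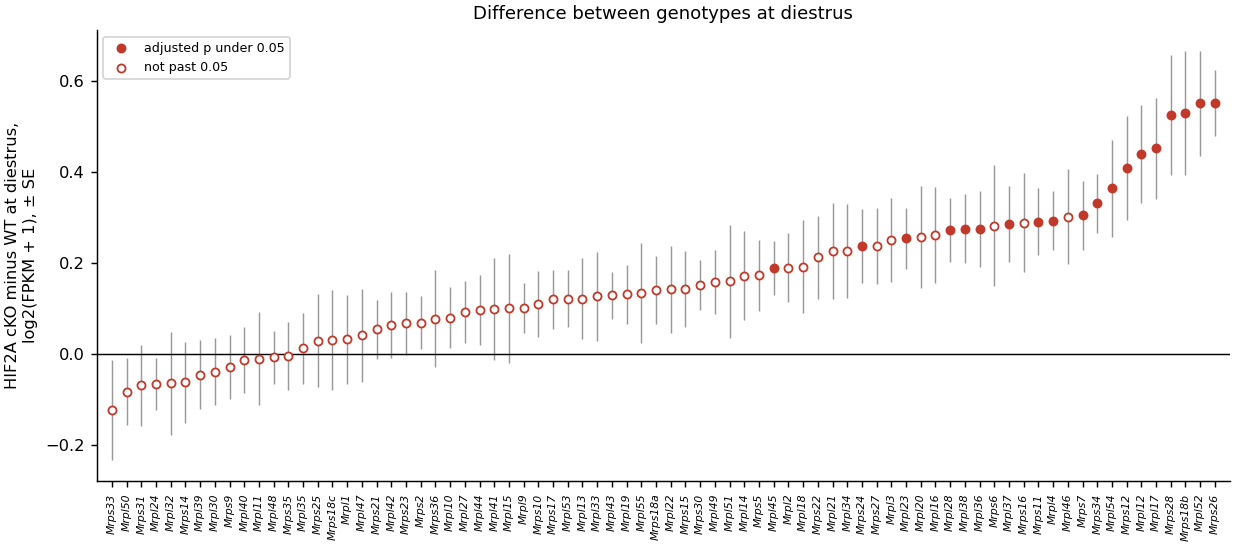
Difference between HIF2A cKO and WT at diestrus in log2(FPKM + 1), with its SE, for each of the 76 genes in order of size, with filled symbols for an adjusted p under 0.05. The 19 filled points all lie above 0, and 63 of 76 genes have a positive difference.

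At estrus, no gene of the family passed the test between the genotypes. The counts were 0 higher and 0 lower by limma, and 0.112% of all genes were called in either direction. An unadjusted p under 0.05 was found for 0 of 76, beside 7.39% of all genes. With library weights 1 gene, Mrps7, was called higher. The median difference was -0.01 log2. The smallest adjusted p was 0.759, for Mrpl50, a mitochondrion-specific large subunit protein, at 13.8, 15.2 and 15.1 FPKM in HIF2A cKO and 15.5, 16.5 and 17.6 FPKM in WT. Its difference was -0.16 ± 0.09 log2 (SE), that of Mrpl40 was -0.15 ± 0.08 and that of Mrps7 was 0.14 ± 0.09. The highest gene of the family, Mrpl52, differed by -0.07 log2 and the lowest, Mrpl19, by -0.05.

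The remaining mitochondrial ribosomal proteins, which carry other names, followed the family. All 7 of 7 were lower at estrus in HIF2A cKO, with a median of -0.63 log2, and 6 of 7 in WT, with a median of -0.48. Dap3, a GTP-binding protein of the small subunit, changed by -0.53 in each genotype, and Ptcd3, a pentatricopeptide protein of the small subunit, by -0.64 in HIF2A cKO and -0.57 in WT. Gadd45gip1 changed by -0.71 in HIF2A cKO and -0.48 in WT, and it was the 1 gene of these 7 that was higher in HIF2A cKO at diestrus, by 0.32 log2 (adjusted p = 0.0070 by limma).

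The factors that act with the mitochondrial ribosome were more mixed. Of 19 translation factors, 10 were lower and 2 higher at estrus in HIF2A cKO, and 11 were lower and 1 higher in WT. The elongation factors Tsfm, Gfm1 and Tufm changed by -0.95, -0.78 and -0.69 log2 in HIF2A cKO and by -0.61, -0.50 and -0.50 in WT. Oxa1l, the insertase of the inner membrane, rose by 0.42 and 0.27. Of 24 assembly and ribosomal RNA factors, 14 were lower in HIF2A cKO and 11 in WT, with none higher by limma in either. Noa1, a GTPase of mitochondrial ribosome assembly, changed by -0.66 in HIF2A cKO and -0.47. in WT Of 17 mitochondrial tRNA synthetases, 12 were lower and 1 higher in HIF2A cKO, and 10 were lower and 2 higher in WT. Fars2, the phenylalanyl enzyme, rose by 0.31 and 0.30.

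Of 12 genes of mitochondrial transcription and biogenesis, 6 were lower and 2 higher at estrus in each genotype. Ppargc1a, the coactivator known as a driver of mitochondrial biogenesis in muscle and brown fat, rose by 1.58 log2 in HIF2A cKO and 1.23 in WT. Pprc1, a related coactivator linked to growth, changed by -1.30 in HIF2A cKO and -0.79 in WT, and Myc by -0.83 and -0.96. Esrra, the nuclear receptor partnered by these coactivators, rose by 0.53 and 0.56. Tfam, which packages mitochondrial DNA, changed by -0.44 in HIF2A cKO and -0.37 in WT, and Polrmt, the mitochondrial RNA polymerase, by -0.43 and -0.36. Nrf1 changed by -0.19 and -0.02 log2 and passed in neither (adjusted p = 0.057 and 0.85 by limma). At diestrus 5 of the 12 were higher and 2 lower in HIF2A cKO, with Pprc1 higher by 0.48 and Ppargc1a lower by 0.39 log2. Examples from these lists were named after their values were seen.

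Genes of other mitochondrial functions were lower at estrus as well. Of 13 genes taken for mitochondrial mass, 11 were lower in HIF2A cKO and 10 lower and 1 higher in WT, with medians of -0.56 and -0.43 log2. The chaperonin Hspd1 changed by -1.53 log2 in HIF2A cKO and -1.34 in WT. Citrate synthase, encoded by Cs, fell by 0.46 in HIF2A cKO, and its change of -0.14 in WT did not pass (adjusted p = 0.2 by limma). At diestrus 7 of the 13 were higher in HIF2A cKO and 0 lower by limma. Of 80 nuclear oxidative phosphorylation subunits tested, 58 were lower and 6 higher in HIF2A cKO, with a median of -0.41, and 47 were lower and 1 higher in WT, with a median of -0.30.

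Among the cytosolic ribosomal proteins few genes passed the test. Of 81 tested, 11 were lower in HIF2A cKO and 15 in WT, with none higher by limma, and the medians were -0.14 and -0.17 log2 beside -0.08 and -0.09 over all genes. At diestrus 5 of the 81 were higher in HIF2A cKO and 0 lower by limma, with a median of 0.02 log2. The summed level of this list varied widely at diestrus, from 56982 to 89925 FPKM in WT and from 67028 to 82360 FPKM in HIF2A cKO. Whether this spread kept the count of calls low was not tested, and no difference between these lists was tested.

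**Figure D5:**
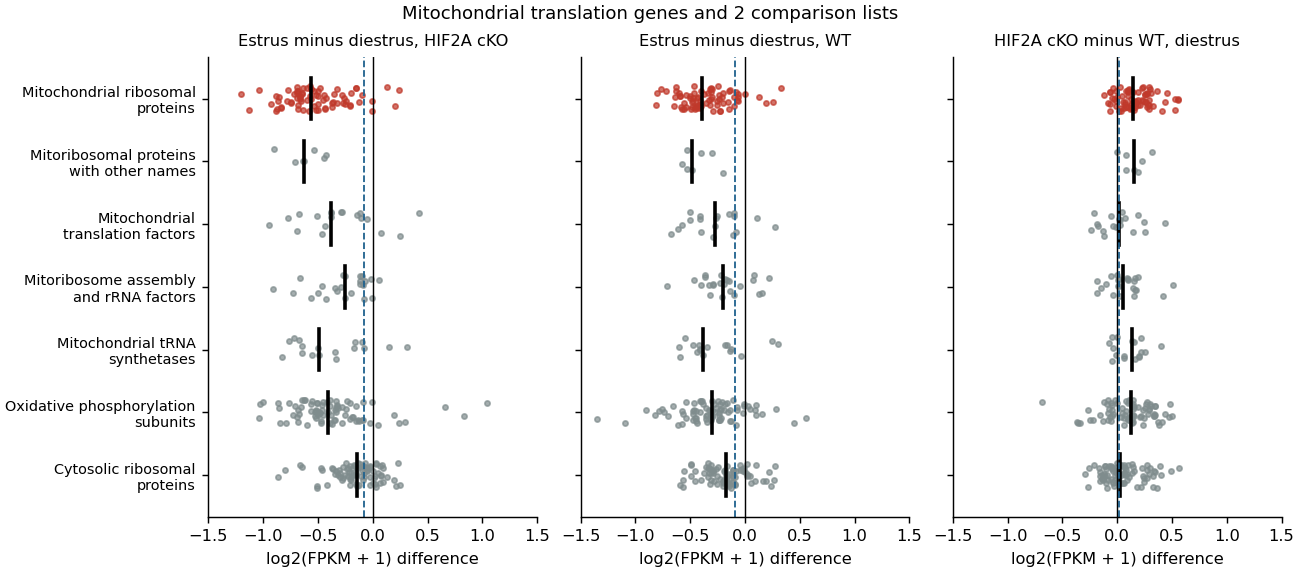
Differences in log2(FPKM + 1) of the genes of 7 lists, 1 point per gene, for estrus against diestrus in HIF2A cKO and in WT and for HIF2A cKO against WT at diestrus, with each list's median as a bar and the median of all genes as a dashed line. At estrus the mitochondrial ribosomal proteins have medians of -0.56 and -0.39, and the cytosolic ribosomal proteins -0.14 and -0.17.

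Markers of dividing cells moved with the family. All 10 of 10 were lower at estrus in each genotype, with medians of -3.16 log2 in HIF2A cKO and -2.56 in WT, and 7 of 10 were higher in HIF2A cKO at diestrus, with a median of 0.44. Their summed level was 53.3 to 59.0 FPKM in HIF2A cKO at estrus and 259.8 to 362 FPKM at diestrus, and 54.97 to 62.9 FPKM in WT at estrus and 214 to 303 FPKM at diestrus. None of them was at 0 in any group. Markers of cell types moved too, with 7 of 9 epithelial and 7 of 7 macrophage markers higher and 1 epithelial marker lower at estrus in each genotype. Of 8 stromal markers, 5 were lower and 1 higher at estrus in HIF2A cKO and 6 were lower in WT. Of 7 smooth muscle markers, 3 were lower and 1 higher in each genotype, and of 5 endothelial markers 2 were lower in HIF2A cKO and 3 in WT. Between the genotypes at diestrus, 2 stromal markers were higher and 3 lower in HIF2A cKO, 1 epithelial marker was higher and 1 lower, 1 endothelial marker was higher, and no smooth muscle or macrophage marker passed the test. Rn45s, the ribosomal RNA precursor, also differed among the groups. It stood at 818.6, 238 and 242 FPKM in HIF2A cKO at estrus and 223, 228, 237 and 1890 FPKM at diestrus, and at 279.7, 236 and 208 FPKM in WT at estrus and 533, 578, 456 and 467 FPKM at diestrus. Without the 2 libraries of most Rn45s, 18 genes of the family were higher in HIF2A cKO at diestrus. The part of dividing cells, cell composition and residual ribosomal RNA in the family's differences was not tested. In whole tissue, fewer cells of a type and less RNA per cell cannot be told apart.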

How the data were processed

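Uterine RNA was extracted with a column kit, treated with DNase and turned into Illumina Tru-Seq RNA libraries, per the labels' protocols. The authors deposited 1 table of FPKM values for 31274 gene symbols in 14 libraries. TopHat2 2.0.4, Cufflinks 2.0.2 and the build mm10 are named in the submitters' processing notes, while for the annotation, the options and the use of strand nothing is stated. FPKM divides by length and by the library total, so genes that take many fragments lower the others. Read counts were not used here and no counting error can be given. The lowest values gave a relative depth for 11 libraries, within a range of 1.91 times.

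Each library was placed in its group by its labels. Tests used limma 3.58.1 (R 4.3.3) on log2(FPKM + 1), for the 14285 genes that reached 1 FPKM in 3 or more libraries. The fit held all libraries, a mean for each group and a mean-variance trend, and p-values were adjusted by Benjamini-Hochberg over all genes tested at 0.05. The added 1 makes log2 differences of genes of low FPKM too small. Script results were checked on simulated data. An exact permutation test, two-sided, was used for Epas1. The labels give groups the same replicate numbers and do not say what the numbers mark. Residuals of the 4 same-number pairs of HIF2A cKO and WT diestrus libraries correlated at 0.324, 0.114, 0.622 and 0.215. The other group pairs gave -0.135 to 0.096, and pairs of unlike numbers are not given. The numbers may thus pair the diestrus libraries, but the main fit held no block, and the replicate block was an alternative.

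Genes named were the 5 highest and 5 lowest in level, the stalk proteins, Mrps12 and the Mrps18 paralogs, then in each stage comparison the 8 largest and 8 smallest changes past the threshold, and in each comparison of genotypes and the interaction up to 10 genes past it in each direction or else the 3 of smallest p. Of the genes that this rule took, those not described one by one are in the plots. The members and lists were chosen with earlier results of these data known. Promoters are from RefSeq for GRCm38.p6 and positions from GENCODE M21. Mitochondrially encoded genes were not analysed here. The alternatives were other pseudocounts, filters, scalings and fits, library weights, the replicate block and each library left out in turn. Alternatives chosen after the data were seen left out the diestrus libraries numbered 3, the 2 libraries with the most Rn45s, a ribosomal RNA precursor, or 7 genes listed at 0 in a whole group.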

Additional observations from a re-analysis of the deposited data

Results flagged for a closer look

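Among 82 sets of 4 diestrus libraries (40 named genes and the sum of all 76 genes of the family, in each genotype), 5 held a library far from the other 3, where chance flags about 1 in 20 groups. HIF2A cKO diestrus replicate 3 was low for Mrps28, at 36.7 FPKM with the next library at 47.8, and for Mrps34, at 25.8 FPKM with the next at 29.3. WT diestrus replicate 2 was high for Mrpl19, at 7.35 FPKM with the next at 6.35, and for Mrpl54, at 81.0 FPKM with the next at 64.6. The same WT library was high for the sum of all 76 genes, at 3098 FPKM with the next at 2675. Both libraries lie toward the other genotype, and the effect of leaving each out is given with the counts. WT diestrus replicate 3 had the lowest sum of its own group too, though it was not flagged.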

How the results depend on the processing

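Under 28 alternatives no call of a named gene changed direction. The median genotype difference of the family at estrus, -0.01 log2, ran between -0.04 and 0.02 with 1 library left out. The count of genes lower at estrus stayed between 58 and 70 in HIF2A cKO and between 41 and 62 in WT. The count higher in HIF2A cKO at diestrus, 19, was 1 with the groups compared alone, 50 with library weights and 6 to 32 with 1 library left out. The count higher at estrus in WT, 1, was 3 under median-of-ratios scaling and under quantile normalization, 2 with library weights and 1 to 2 with 1 library left out. That in HIF2A cKO, 2, was 1 with the replicate block and the groups compared alone. Quantile normalization called 1 gene lower in HIF2A cKO at diestrus, and library weights called 1 gene higher in HIF2A cKO at estrus. The interaction called 33 genes lower with library weights, 6 without both diestrus libraries numbered 3, and 0 to 6 with 1 library left out. Counts over all genes with library weights or with libraries left out are not given here, so these shifts cannot be read as particular to the family. The cause of these shifts was not tested. The fits of the groups compared alone have fewer libraries and a spread of their own. With the replicate block and all libraries, 25 genes were higher in HIF2A cKO at diestrus, and 67 in HIF2A cKO and 59 in WT were lower at estrus. Libraries of the same number in the other group pairs did not correlate as those at diestrus did. Among named genes, Mrps18a and Mrps24 in WT and Mrpl48 in HIF2A cKO most often lost their call at estrus, under 20, 10 and 16 alternatives. Under fewer alternatives Mrps35, Mrps21, Mrpl53 and Mrpl48 lost it in WT. In HIF2A cKO Mrpl10, Mrps23, Mrps21, Mrps30, Mrpl43 and Mrpl9 did so. With 1 library left out, the diestrus call was lost 5 times for Mrpl54, 3 for Mrps12, 2 for Mrps18b and 1 each for Mrpl17 and Mrps28. Without read counts, the depth behind low values such as Mrpl19 is unknown.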
